A study of Homo sapiens with 6 samples.

Results

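The transcripts described here encode 9 factors that make the mature ends of replication-dependent histone mRNAs or switch on the genes for them: SLBP, LSM10, LSM11, NPAT, CASP8AP2, ERI1, CPSF3, SYMPK and CSTF2. They were chosen by name for their role, matched by Ensembl identifier, and all 9 were found among the 19493 genes with values in the deposited files. RNA was sequenced from HaCaT, an immortalised line of human keratinocytes, and every group carried the photolyase of the marsupial Potorous tridactylus, an enzyme that uses visible light to split cyclobutane pyrimidine dimers (CPDs) in DNA. There were 3 groups of 2 libraries each. UVC+photolyase cells received 15 J/m2 of UVC at 254 nm, were harvested 6 h after irradiation, and had the enzyme activated by 2 h of white light. UVC cells received the same dose with the enzyme left inactive and were harvested at the same time. Control cells were not irradiated and had inactive enzyme. White light is described for UVC+photolyase cells alone, so light and repair of CPDs cannot be told apart. The labels do not say whether replicates were separate cultures, nor which promoter drove the enzyme or whether the line was 1 clone, and p-values therefore measure only the spread between these libraries.

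Most mRNAs end in a poly(A) tail, whereas replication-dependent histone mRNAs end in a short stem-loop. SLBP binds that stem-loop and stays with the mRNA through cleavage, export, translation and decay. The U7 small nuclear ribonucleoprotein pairs with a purine-rich element downstream of the stem-loop. Its ring of Sm proteins differs from that of the spliceosome in that LSM10 and LSM11 take the places of SmD1 and SmD2. CASP8AP2, also called FLASH, binds LSM11, and together they recruit a cleavage complex that is shared with polyadenylated mRNAs: the endonuclease CPSF3 (CPSF73), the scaffold symplekin (SYMPK) and CSTF2 (CstF64). NPAT is the coactivator at histone gene clusters and a substrate of cyclin E with CDK2, and ERI1 (3'hExo) is an exonuclease that binds the stem-loop together with SLBP and trims the histone 3' end.

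The RNA elements on which these factors act are shown first, because the results concern the proteins that bind them. U7 RNA (RNU7-1, chromosome 12, 63 bases in GENCODE 29, written as DNA) carries the site for the ring of LSM10, LSM11 and Sm proteins, here in capitals.
RNU7-1: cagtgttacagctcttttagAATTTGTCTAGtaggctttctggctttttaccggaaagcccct
The site bound by SLBP was searched in GENCODE 29 protein-coding transcripts as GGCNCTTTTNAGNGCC on the sense strand, and 12 of the 21 histone genes that were tested held it. A gene without a match may still have the site, since only annotated transcripts and a fixed motif were searched. The site is printed in capitals with 6 bases on each side for 4 histone genes named further on.
H2BC21: tccaaaGGCTCTTTTCAGAGCCacccac
H2AC25: cataaaGGCTCTTTTCAGAGCCacctac
H2BC4: cccaaaGGCTCTTTTAAGAGCCacccag
H4C8: accaaaGGCCCTTTTCAGGGCCgcccac
H2BC21 and H2AC25 lie on chromosome 1, and H2BC4 and H4C8 on chromosome 6. In 8 of the 12 genes the longest such transcript ran on for more than 100 bases after the stem-loop, for example by 1729 bases in H2BC21. The files give 1 value per gene, so RNA that ends at the stem-loop and RNA that extends past it cannot be told apart here.

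Promoter sequence is shown for 5 members, 4 that moved together (SLBP, LSM11, NPAT and CASP8AP2) and LSM10, which moved the other way. Promoters on GRCh38.p14 were taken from RefSeq for 8 of the 9 members. None was taken for ERI1, so its promoter was not searched, which does not mean that RefSeq lacks one. Each sequence holds the 250 bases upstream of the annotated start, 5' to 3' on the gene's strand: SLBP at chr4:1712320-1712569 (minus), LSM11 at chr5:157743462-157743711 (plus), CASP8AP2 at chr6:89829630-89829879 (plus), NPAT at chr11:108222639-108222888 (minus) and LSM10 at chr1:36397909-36398158 (minus). Capitals mark matches on either strand to CCAAT (the NF-Y box), GGGCGG (the GC box), CCGGAAG (an ETS site), TTTGGCGC (an E2F site) or TATAAA (the TATA box).
SLBP: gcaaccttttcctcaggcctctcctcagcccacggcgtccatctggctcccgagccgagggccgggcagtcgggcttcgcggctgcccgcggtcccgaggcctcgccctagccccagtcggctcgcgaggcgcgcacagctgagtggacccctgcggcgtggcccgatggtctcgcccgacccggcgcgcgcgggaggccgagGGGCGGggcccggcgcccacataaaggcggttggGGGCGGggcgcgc
LSM11: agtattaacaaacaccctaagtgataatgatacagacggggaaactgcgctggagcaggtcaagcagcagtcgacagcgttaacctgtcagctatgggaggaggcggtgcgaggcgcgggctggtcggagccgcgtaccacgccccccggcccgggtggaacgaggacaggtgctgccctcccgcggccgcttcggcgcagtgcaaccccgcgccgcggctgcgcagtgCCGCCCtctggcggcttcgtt
CASP8AP2: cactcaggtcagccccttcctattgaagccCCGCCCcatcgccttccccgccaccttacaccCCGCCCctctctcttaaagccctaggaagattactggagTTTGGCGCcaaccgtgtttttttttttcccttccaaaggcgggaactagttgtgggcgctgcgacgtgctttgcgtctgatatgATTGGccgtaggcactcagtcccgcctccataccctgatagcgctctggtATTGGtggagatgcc
NPAT: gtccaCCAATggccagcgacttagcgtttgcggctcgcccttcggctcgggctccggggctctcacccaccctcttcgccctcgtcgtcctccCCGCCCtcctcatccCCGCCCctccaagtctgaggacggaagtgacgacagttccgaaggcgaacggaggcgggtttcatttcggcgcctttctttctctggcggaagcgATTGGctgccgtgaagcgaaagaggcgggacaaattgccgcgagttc
LSM10: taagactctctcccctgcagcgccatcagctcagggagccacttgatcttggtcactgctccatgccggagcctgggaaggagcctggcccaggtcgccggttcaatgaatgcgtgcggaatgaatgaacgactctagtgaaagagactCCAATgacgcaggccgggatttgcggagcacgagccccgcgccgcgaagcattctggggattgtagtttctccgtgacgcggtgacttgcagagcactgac
No motif was common to the 4 that moved together and absent from LSM10 except GGGCGG. That motif stood in 42.5% of 34943 promoter windows of the same length. CSTF2 also held it, as did SYMPK, which moved in the same direction as LSM10. CCAAT, found in CASP8AP2, NPAT and LSM10, stood in 32% of windows. The E2F letters stood in 0.547% of windows and, among the 8 members, in CASP8AP2 and CPSF3. CCGGAAG (8.48% of windows) occurred in CPSF3 and CSTF2, and TATAAA (10.8%) in none of the 8.

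Counts per library totalled 57669389 to 70005705. Keratinocyte markers were present, with all 9 listed genes above 14.2 in every library on the scaled cRPKM scale. In that unit, the authors' corrected RPKM, a read density normalised to gene length and depth, is divided by a library scaling factor. Of markers of melanocytes, 6 or 7 of 7 stayed under 1 in each library, as did 6 of 8 of fibroblasts and 5 or 6 of 8 of immune cells, with summed levels of 1.35 to 2.25 for melanocytes and 7.33 to 9.62 for fibroblasts. The summed immune level was 81.8 to 82.7 in UVC+photolyase, 50.6 to 53.9 in UVC and 53.8 to 56.5 in control, and the summed keratinocyte level was 25876 to 25900, 16643 to 17017 and 26640 to 27429; their part in the results was not tested. Tests were made with edgeR's quasi-likelihood F test over all 11926 genes that reached 1 cRPKM in at least 2 libraries, and genes with a Benjamini-Hochberg adjusted p below 0.05 over all of them are termed called. All 9 members passed that filter. LSM11 did so through its UVC+photolyase and control libraries, since both UVC libraries were below 1 cRPKM.

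The effect of irradiation on these transcripts was read from UVC against control libraries. SLBP, LSM11, CASP8AP2 and NPAT fell after UVC, while SYMPK and LSM10, the partner of LSM11 in the U7 ring, rose. ERI1, CPSF3 and CSTF2 were not called. Thus 2 of 9 members were higher and 4 lower, in a comparison in which 85.6% of tested genes were called (42.5% higher and 43.1% lower), so the share of members called is not a result about them. What can be read is the size and direction of each change.

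SLBP had 14.3 and 13.7 scaled cRPKM in UVC libraries, against 39.1 and 39.3 in control libraries. Both UVC values were far below both control values. The fold change was 2.80-fold lower, at a log2 value of -1.48 ± 0.05 (SE; adjusted p = 6.36e-12 by edgeR), and 10.1% of tested genes had a lower log2 fold change. Its counts of 1908 and 1798 in UVC libraries, against 4681 and 4663 in control libraries, make counting error small.

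The pair of proteins that set the U7 ring apart moved in opposite directions. LSM11 had 0.754 and 0.719 scaled cRPKM after UVC, against 2.95 and 3.02 in control, a 4.03-fold drop (log2 fold change -2.01 ± 0.08, adjusted p = 1.96e-11 by edgeR). This was the deepest change among the 9, and 4.9% of tested genes had a lower one. LSM10 had 11.4 and 11.6 scaled cRPKM after UVC, against 6.27 and 5.56 in control, and rose 1.94-fold (log2 fold change 0.96 ± 0.10, adjusted p = 5.04e-07). It stood above 88.9% of tested genes in log2 fold change. Neither gene had overlapping groups. LSM11 had 326 and 307 reads in UVC libraries, against 1144 and 1159 in control libraries, and LSM10 had 627 and 633 reads in UVC libraries, against 312 and 274 in control libraries.

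CASP8AP2, which docks on LSM11, had 1.37 and 1.23 scaled cRPKM after UVC, against 2.42 and 2.80 in control, and fell 2.01-fold (log2 fold change -1.01 ± 0.09, adjusted p = 2.22e-07 by edgeR). NPAT, the transcriptional coactivator, had 2.82 and 3.1 after UVC, against 4.98 and 5.21 in control, and fell 1.72-fold (-0.78 ± 0.07, adjusted p = 8.51e-08). For both genes the UVC libraries lay below the control libraries.

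In the shared cleavage complex SYMPK was called, and the calls of CPSF3 and CSTF2 depended on the processing. SYMPK had 18.5 and 16.9 scaled cRPKM after UVC, against 13.5 and 13.9 in control (log2 fold change 0.37 ± 0.06, adjusted p = 3.86e-05 by edgeR). The nuclease transcript CPSF3 had 12.8 and 13.9 after UVC, against 15.3 and 14.2 in control (-0.14 ± 0.07, adjusted p = 0.0603), and CSTF2 had 13.7 and 12.99 against 12.7 and 12.6 (0.08 ± 0.06, adjusted p = 0.249). ERI1, the trimming nuclease, had 2.45 and 2.62 after UVC, against 2.36 and 2.48 in control, and its groups overlapped (0.07 ± 0.08, adjusted p = 0.424). With library totals CPSF3 (0.28) and CSTF2 (0.49) were called higher, whereas CPSF3 was called lower with no filter on low values (-0.23), without control replicate 2 (-0.19) and without UVC replicate 2 (-0.20). CSTF2 has a close paralog, CSTF2T, and reads shared by them may have been divided in the authors' counting.

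**Figure D1:**
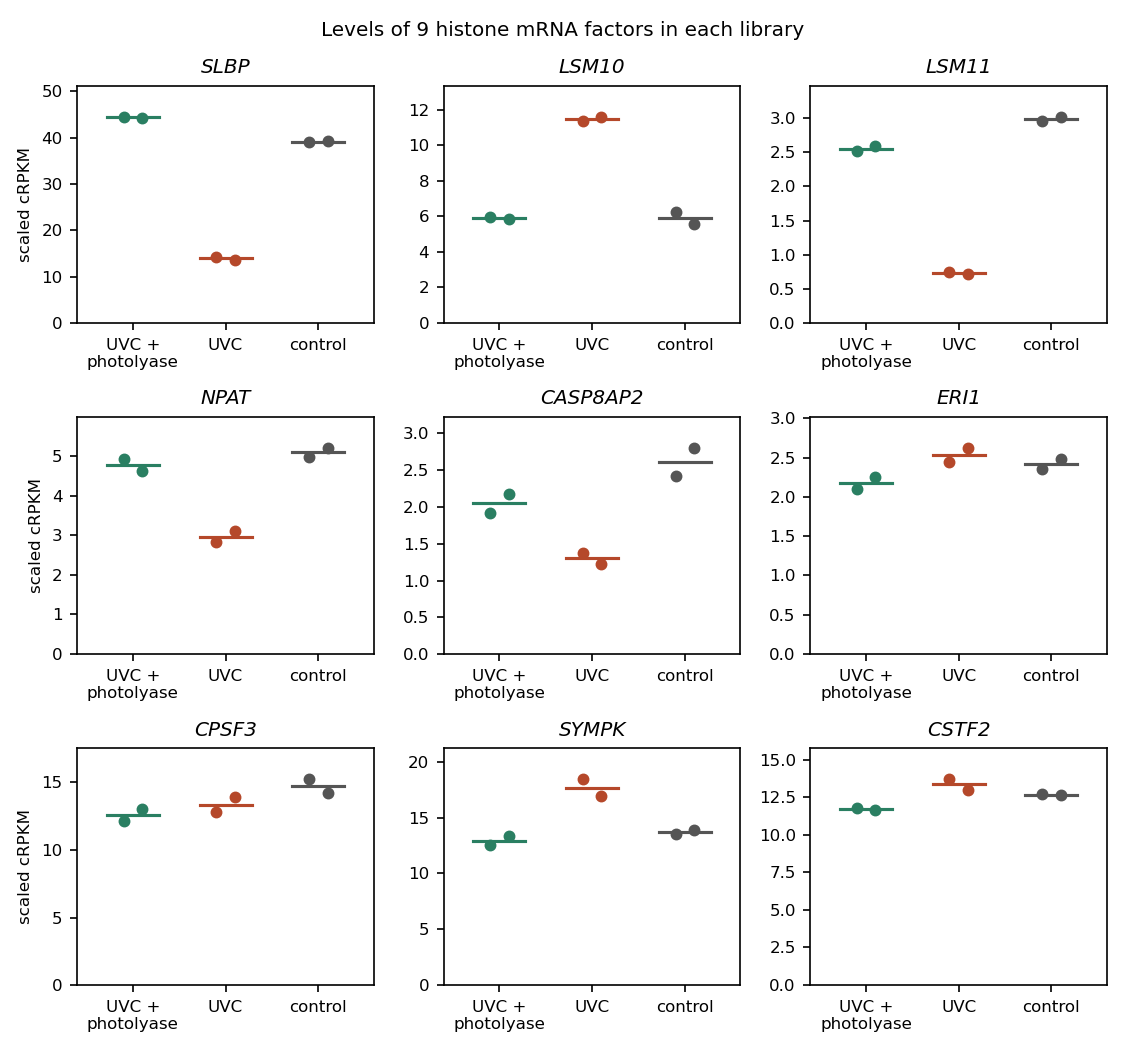
Scaled cRPKM (vertical axes, from 0) of the 9 factors in UVC+photolyase, UVC and control libraries; each point is 1 library and each line the mean of 2. SLBP, LSM11, NPAT and CASP8AP2 were lowest in UVC libraries and LSM10 and SYMPK highest there.

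What activation of the enzyme by light changed was read from UVC+photolyase against UVC libraries. Each of the 6 members called after UVC was called here in the opposite direction, SLBP, LSM11, NPAT and CASP8AP2 upward and LSM10 and SYMPK downward, and ERI1 and CSTF2 were called lower as well. The 4 rises and 4 falls of 9 stand beside 79.1% of tested genes called (39.2% higher and 39.9% lower). This comparison and the one before share the UVC libraries, so opposite directions are not independent of each other.

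SLBP had 44.5 and 44.3 scaled cRPKM in UVC+photolyase libraries, against 14.3 and 13.7 in UVC libraries, and rose 3.17-fold (log2 fold change 1.66 ± 0.05, adjusted p = 3.41e-12 by edgeR). LSM11 had 2.52 and 2.59, against 0.754 and 0.719 in UVC libraries, and rose 3.45-fold (1.79 ± 0.08, adjusted p = 1.17e-10). These changes exceeded those of 94.2% and 95.2% of tested genes. LSM10 had 5.94 and 5.86 in UVC+photolyase libraries, against 11.4 and 11.6 in UVC libraries, and fell 1.94-fold (-0.96 ± 0.10, adjusted p = 7.12e-07). Only 1.9% of tested genes had a lower log2 fold change than LSM10.

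The rises of NPAT and CASP8AP2 were smaller. NPAT had 4.93 and 4.64 scaled cRPKM in UVC+photolyase libraries, against 2.82 and 3.1 in UVC libraries (log2 fold change 0.69 ± 0.07, adjusted p = 5.05e-07 by edgeR). CASP8AP2 had 1.92 and 2.18, against 1.37 and 1.23 (0.66 ± 0.10, adjusted p = 2.6e-05). SYMPK had 12.5 and 13.3 in UVC+photolyase libraries, against 18.5 and 16.9 in UVC libraries (-0.45 ± 0.06, adjusted p = 7.46e-06). In each of these 3 genes the 2 groups did not overlap.

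ERI1 and CSTF2 changed little. ERI1 had 2.10 and 2.25 scaled cRPKM in UVC+photolyase libraries, against 2.45 and 2.62 in UVC libraries (log2 fold change -0.22 ± 0.08, adjusted p = 0.0181 by edgeR). That call was lost with DESeq2 (adjusted p = 0.0507), with no filter on low values (0.0639), without UVC replicate 2 (0.14) and without UVC+photolyase replicate 1 (0.126). CSTF2 had 11.8 and 11.7, against 13.7 and 12.99 (-0.19 ± 0.06, adjusted p = 0.0112), and lost its call with no filter (0.0631) and without UVC replicate 1 (0.103). CPSF3 had 12.1 and 13.1, against 12.8 and 13.9, and its groups overlapped (-0.09 ± 0.07, adjusted p = 0.241). It was called lower with library totals (-0.39) and with a filter of 5 cRPKM (-0.18).

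The distance of each transcript from its unirradiated level was read from UVC+photolyase against control libraries. Differences were small, within 0.35 on the log2 scale for every member, with 1 of 9 higher and 3 lower where 65.8% of tested genes were called (33% higher and 32.9% lower). SLBP was the one called higher: 44.5 and 44.3 scaled cRPKM in UVC+photolyase libraries, against 39.1 and 39.3 in control libraries (log2 fold change 0.18 ± 0.05, adjusted p = 0.0058 by edgeR). With no filter on low values it missed the threshold (0.13, adjusted p = 0.0501). LSM10 averaged 5.90 ± 0.06 in UVC+photolyase libraries and 5.92 ± 0.50 in control libraries (SD, n = 2 each), with overlapping groups and a fold change of 0.998 (adjusted p = 0.986).

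CASP8AP2 had the largest difference from control, at 1.92 and 2.18 scaled cRPKM in UVC+photolyase libraries, against 2.42 and 2.80 in control libraries (log2 fold change -0.35 ± 0.09, adjusted p = 0.00428 by edgeR). LSM11 had 2.52 and 2.59, against 2.95 and 3.02 (-0.22 ± 0.07, adjusted p = 0.0116), and CPSF3 had 12.1 and 13.1, against 15.3 and 14.2 (-0.23 ± 0.07, adjusted p = 0.00843). Without UVC+photolyase replicate 1 these 3 were not called and SLBP alone was: CASP8AP2 was at -0.26 ± 0.11 (adjusted p = 0.0588 by edgeR), LSM11 at -0.20 ± 0.09 (0.0726) and CPSF3 at -0.17 ± 0.08 (0.0925), with larger SE than over all libraries. With library totals in place of scaling factors the calls of LSM11 (-0.12, adjusted p = 0.16) and CPSF3 (-0.12, adjusted p = 0.133) were also lost. Limma at a pseudocount of 1 called none of the 3, with CASP8AP2 at an adjusted p of 0.0738. NPAT (-0.09 ± 0.06, adjusted p = 0.227), SYMPK (-0.08 ± 0.06, 0.219), CSTF2 (-0.11 ± 0.06, 0.119) and ERI1 (-0.16 ± 0.08, 0.0986) were not called by edgeR.

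**Figure D2:**
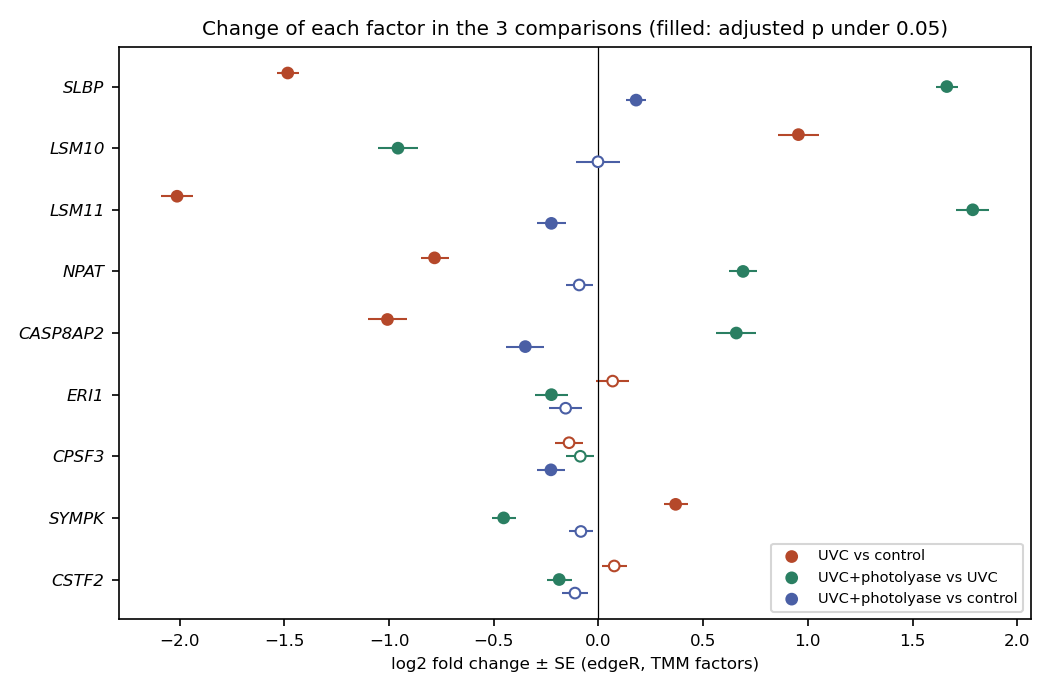
Log2 fold change of each factor (horizontal axis, bars are SE) in the 3 comparisons, with filled points for an adjusted p under 0.05. Changes after UVC span -2.01 for LSM11 to 0.96 for LSM10, and those of UVC+photolyase against control lie within 0.35 of 0.

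The order of the 9 transcripts by level per kilobase differed between groups. SLBP was the most abundant in UVC+photolyase (44.4 ± 0.15 scaled cRPKM, SD, n = 2) and in control (39.2 ± 0.14), at a distance from SYMPK, CPSF3 and CSTF2, whose means lay between 11.7 and 14.7. In UVC libraries SYMPK came first (17.7 ± 1.1), and SLBP (14.01 ± 0.48) did not differ beyond its spread from CPSF3 (13.4 ± 0.77), nor CPSF3 from CSTF2 (13.4 ± 0.51). LSM11 was above ERI1 and CASP8AP2 in UVC+photolyase and in control and last in UVC. The neighbours ERI1 and CASP8AP2 overlapped in UVC+photolyase and in control, and SYMPK and CPSF3 overlapped in UVC+photolyase.

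Ratios of 2 transcripts within a library use no scaling factor. The ratio of LSM10 to LSM11, in cRPKM as deposited, was 2.36 and 2.26 in UVC+photolyase libraries, 15.1 and 16.1 in UVC libraries and 2.12 and 1.84 in control libraries. The log2 ratio was thus 2.98 higher in UVC than in control and lower by 2.75 in UVC+photolyase than in UVC (differences of means of 2). SLBP to CSTF2 was 3.77 and 3.80 in UVC+photolyase, 1.05 and 1.05 in UVC and 3.07 and 3.11 in control. SYMPK to SLBP was 0.281 and 0.301, 1.29 and 1.24, and 0.346 and 0.353 in the same groups. None of these groups overlapped, but with 2 libraries against 2 an exact permutation test (two-sided) cannot go below p = 0.333, which each of these contrasts gave.

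SmD1 and SmD2, which LSM10 and LSM11 replace, did not change as their counterparts did. SNRPD1 averaged 52.6 ± 0.65 scaled cRPKM in UVC+photolyase, 29.6 ± 1.5 in UVC and 58.6 ± 1.1 in control (SD, n = 2 each), so it fell after UVC (log2 fold change -0.99 ± 0.05) where LSM10 rose. SNRPD2 averaged 125 ± 0.81, 149 ± 2.7 and 102 ± 10.6 in the same order of groups and rose after UVC (0.55 ± 0.06) where LSM11 fell. The ratio of SNRPD1 to LSM10 was 2.52 and 2.64 in UVC libraries, against 9.47 and 10.4 in control libraries. The ratio of SNRPD2 to LSM11 was 200 and 204 in UVC libraries, against 36.9 and 31.2 in control libraries.

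**Figure D3:**
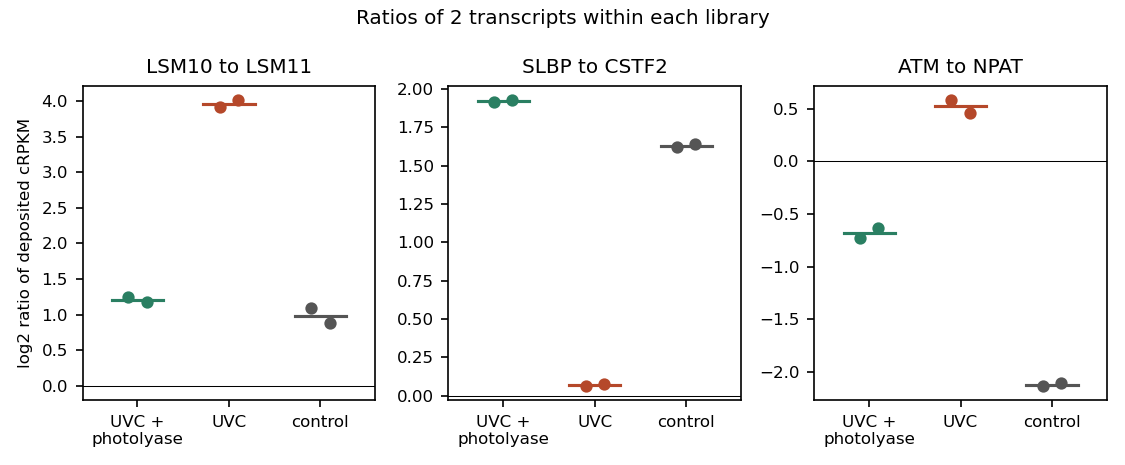
Log2 ratio of the deposited cRPKM of 2 transcripts (vertical axes, different ranges) in each of the 6 libraries, for UVC+photolyase, UVC and control; points are libraries and lines means. The ratios of LSM10 to LSM11 and of ATM to NPAT were highest in UVC libraries and that of SLBP to CSTF2 lowest there.

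Some members have a neighbour whose transcription starts next to theirs on the other strand. NPAT and ATM, the kinase gene of the double-strand break response, start 429 bases apart in RefSeq on chromosome 11, and in GENCODE 29 the 2 genes overlap by 159 bases. ATM averaged 2.99 ± 0.016 scaled cRPKM in UVC+photolyase, 4.25 ± 0.044 in UVC and 1.17 ± 0.050 in control (SD, n = 2 each), so it rose after UVC (log2 fold change 1.86 ± 0.06, adjusted p = 2.38e-12 by edgeR) while NPAT fell. With active enzyme ATM fell relative to UVC (-0.51 ± 0.05) and stayed above control (1.35 ± 0.06, adjusted p = 9.4e-10). The ratio of ATM to NPAT was 0.604 and 0.646 in UVC+photolyase, 1.5 and 1.38 in UVC and 0.229 and 0.232 in control. The use of strand in counting is not given in the sources used here, so reads in the overlap cannot be assigned to either gene.

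CPSF3 starts 21 bases from ITGB1BP1 in GENCODE 29, which encodes an integrin-binding protein. ITGB1BP1 averaged 23.3 ± 0.78 scaled cRPKM in UVC+photolyase, 17.3 ± 0.10 in UVC and 19.2 ± 0.70 in control. Its fall after UVC (log2 fold change -0.15 ± 0.06, adjusted p = 0.0204 by edgeR) turned to 0.26 with library totals. SYMPK starts 699 bases from FOXA3, which was below the filter in these libraries.

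The principal transcripts of the members in GENCODE 29 span 4.5 kb for LSM10 to 65.4 kb for NPAT. In order of span, the log2 fold change of UVC against control was 0.96 for LSM10, -2.01 for LSM11 (17 kb), -1.48 for SLBP (19.8 kb), 0.08 for CSTF2 (20.5 kb), 0.07 for ERI1 (31.2 kb), -1.01 for CASP8AP2 (41.5 kb), 0.37 for SYMPK (47.9 kb), -0.14 for CPSF3 (49.5 kb) and -0.78 for NPAT. Over all tested genes the median was 0.26 for 4872 genes under 20 kb, -0.16 for 3165 of 20 to 50 kb and -0.27 for 3525 above 50 kb. The part of span in the members' changes was not tested.

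The other genes of the pathway were described by lists chosen by role. In the U7 ring and its zinc finger partner ZNF473, 2 of 6 rose after UVC and 3 fell (median log2 fold change -0.12, against 0.004 over all tested genes). Over all tested genes 42.5% rose and 43.1% fell, so that 5 of 6 called is near the background. ZNF473, which binds LSM11, fell: it averaged 2.11 ± 0.11 scaled cRPKM in UVC and 4.52 ± 0.29 in control (-1.10 ± 0.07). SNRPB fell (-0.54 ± 0.05), and SNRPD3 (0.27 ± 0.05) and SNRPE (0.21 ± 0.08) rose. In UVC+photolyase against UVC, 4 of the 6 rose and none fell (median 0.29, against -0.04 over all tested genes, of which 39.2% rose and 39.9% fell), ZNF473 by 1.20 ± 0.07 and SNRPB by 0.45 ± 0.05. Against control 4 were higher and none lower (median 0.17, against 0.01 over all tested genes, of which 33% were higher and 32.9% lower), with SNRPE at 0.32 ± 0.08 and SNRPD3 at 0.23 ± 0.05.

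Of 16 other cleavage and polyadenylation factors 3 rose and 11 fell after UVC (median -0.38 on the log2 scale), where 42.5% of all tested genes rose and 43.1% fell (median 0.004). CPSF7, a subunit of cleavage factor I, fell (-1.32 ± 0.05), as did CLP1 of cleavage factor II (-1.28 ± 0.07), while the scaffold CPSF1 (0.50 ± 0.06) and the nuclear poly(A) binding protein gene PABPN1 (0.26 ± 0.05) rose. Relative to UVC, UVC+photolyase had 11 higher and 4 lower (median 0.40; all tested genes 39.2% higher and 39.9% lower), with CLP1 at 1.45 ± 0.06, PCF11 at 1.24 ± 0.06, CPSF1 at -0.49 ± 0.06 and CPSF6 at -0.37 ± 0.08. Against control 4 were higher and 6 lower (median -0.03; all tested genes 33% higher and 32.9% lower), with RBBP6 at 0.96 ± 0.09, PCF11 at 0.21 ± 0.06, FIP1L1 at -0.51 ± 0.07 and WDR33 at -0.35 ± 0.06.

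Among 8 genes that act on histone gene transcription, 1 rose and 4 fell after UVC (median -0.18), beside 42.5% and 43.1% of all tested genes. The histone H4 promoter factor HINFP rose (0.58 ± 0.07), and CCNE2, a cyclin E gene whose product drives the phosphorylation of NPAT, fell (-1.34 ± 0.09), as did CRAMP1 (-0.84 ± 0.08). Relative to UVC, UVC+photolyase had 5 higher and 1 lower (median 0.31; all tested genes 39.2% higher and 39.9% lower): CCNE2 rose by 1.65 ± 0.09 and CCNE1 by 1.32 ± 0.11, and HINFP fell (-0.32 ± 0.07). Against control 4 were higher and 2 lower (median 0.14; all tested genes 33% higher and 32.9% lower), with CDK2 at 0.29 ± 0.06, CCNE2 at 0.30 ± 0.08, CRAMP1 at -0.35 ± 0.08 and GON4L at -0.22 ± 0.06.

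In the list for export, translation and decay of histone mRNA 7 of 22 rose and 14 fell after UVC (median -0.34), in a comparison that called 85.6% of all tested genes (42.5% higher and 43.1% lower). The export adaptors SRSF3 (-1.48 ± 0.05) and SRSF7 (-1.49 ± 0.05) fell, and LSM2 (0.99 ± 0.08) and LSM4 (0.66 ± 0.05) of the decay ring rose. With active enzyme 10 were higher and 9 lower than in UVC (median 0.11; all tested genes 39.2% higher and 39.9% lower), SRSF7 (0.98 ± 0.05) and the uridylyltransferase gene TUT7 (0.88 ± 0.05) upward, and LSM2 (-1.03 ± 0.08) and the translation factor gene CTIF (-0.48 ± 0.06) downward. Against control 4 were higher and 10 lower (median -0.15; all tested genes 33% higher and 32.9% lower), with NXF1 at 0.35 ± 0.06, LSM4 at 0.26 ± 0.05, CTIF at -1.14 ± 0.06 and SRSF3 at -0.77 ± 0.05.

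Of 5 genes tied to SLBP protein turnover, 2 rose and 2 fell after UVC (median -0.16), which is near the 85.6% of all tested genes called (42.5% higher and 43.1% lower). The kinase gene CDK1 rose, with an adjusted p just under the threshold (0.19 ± 0.08, adjusted p = 0.0455 by edgeR). CCNF, the cyclin F gene (-1.33 ± 0.09), and CSNK2A1, a casein kinase gene (-0.87 ± 0.06), fell. Relative to UVC, UVC+photolyase had 2 higher and 2 lower (median -0.20; all tested genes 39.2% higher and 39.9% lower), with CCNF at 0.93 ± 0.09, CSNK2A1 at 0.54 ± 0.06 and CDK1 at -0.25 ± 0.08. Against control 1 was higher and 3 were lower (median -0.33; all tested genes 33% higher and 32.9% lower), among them CCNF (-0.41 ± 0.08) and CSNK2A1 (-0.33 ± 0.06). SLBP protein was not measured.

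Genes of S phase had medians near 0 after UVC. Of 12, 3 rose and 5 fell after UVC (median -0.07; all tested genes 42.5% higher and 43.1% lower), with TYMS at 0.49 ± 0.08, PCNA at 0.25 ± 0.05 and the licensing factor gene CDC6 at -0.63 ± 0.06. MCM4 (-0.41 ± 0.05) was at 0.01 with library totals. With active enzyme 8 were higher and 1 lower than in UVC (median 0.25; all tested genes 39.2% higher and 39.9% lower), CDC6 by 0.81 ± 0.06, MCM4 by 0.65 ± 0.05 and TYMS downward (-0.27 ± 0.08). Against control 9 were higher and 1 lower (median 0.22; all tested genes 33% higher and 32.9% lower), with PCNA at 0.54 ± 0.05, MCM5 at 0.32 ± 0.07 and RRM2 at -0.24 ± 0.08. Their part in the changes of SLBP, NPAT and the U7 proteins was not tested.

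The substrates of the machinery, the replication-dependent histone genes, were mostly higher in both irradiated groups than in control. These values do not separate RNA that ends at the stem-loop from RNA that extends past it. Whether RNA was selected by its poly(A) tail is not described here, so these forms may not have been sampled alike. The values therefore do not give the level of processed histone mRNA. Of 64 listed, 26 had values and 21 were tested, and reads shared between near-identical copies make single values uncertain. Among the tested genes, H1-3, H1-4, H2AC20, H2AC21 and H2BC13 averaged 0 to 0.435 scaled cRPKM in control. They passed the filter only through irradiated libraries, so their rises against control are not independent of the filter. H2AC13 and H4C11 averaged 1.04 ± 0.25 and 1.01 ± 0.47 scaled cRPKM in control (SD) and also needed irradiated libraries to pass. The counts and medians that follow include all of these genes. After UVC 18 rose and 1 fell (median 1.45), where 42.5% of all tested genes rose and 43.1% fell: H2BC21 averaged 155 ± 2.7 scaled cRPKM in UVC and 20.1 ± 0.77 in control, H2AC25 49.99 ± 1.6 and 12.5 ± 0.071, and H4C8, the one that fell (-0.23 ± 0.09), turned to 0.18 with library totals. Against control, UVC+photolyase had 18 higher and none lower (median 1.89; all tested genes 33% higher and 32.9% lower), whereas SLBP and LSM11 stood at 0.18 and -0.22 on the log2 scale in that comparison. H2BC4 averaged 64.0 ± 5.9 in UVC+photolyase and 9.12 ± 0.0023 in control, and H2BC21 125 ± 11.1 and 20.1 ± 0.77. In UVC+photolyase against UVC 9 rose and 8 fell (median -0.22; all tested genes 39.2% higher and 39.9% lower), among them H2BC4 (1.65 ± 0.08), H2AC6 (1.08 ± 0.08), H1-4 (-1.69 ± 0.20) and H1-2 (-0.45 ± 0.09). One gene, H2AC21, had 0 counts in control, and putting it at the bound given by 3 counts over the group left both medians against control as they were. In bulk libraries fewer cells that express a gene and less RNA per cell cannot be told apart.

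**Figure D4:**
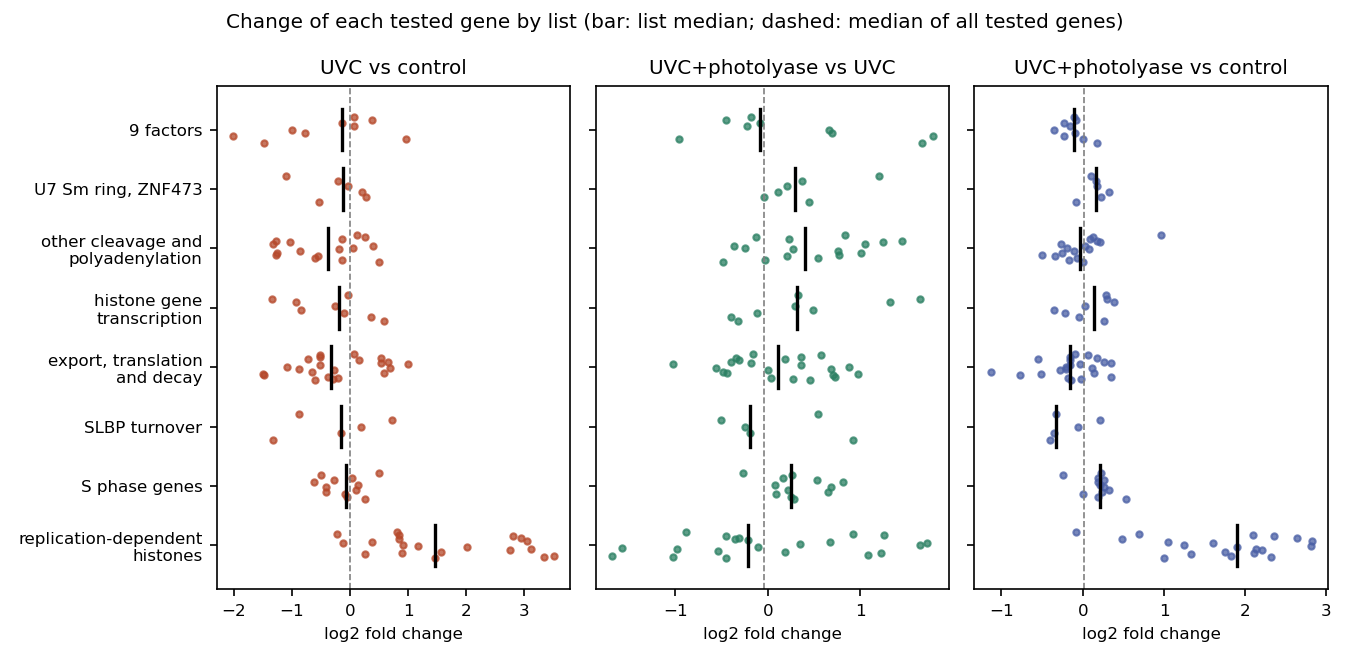
Log2 fold change (horizontal axes) of each tested gene in the 9 factors and 7 related lists, for the 3 comparisons; points are genes, black bars list medians, dashed lines the median of all tested genes, and H2AC21 is not drawn in comparisons with control, where it had 0 counts. The histone list has medians of 1.45 and 1.89 against control, and the medians of the other lists lie within 0.41 of 0.

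By distance between centred log2(scaled cRPKM + 1) profiles over the 6 libraries, the 5 genes most like SLBP among 7912 others of at least 5 cRPKM were TBPL1 (distance 0.0698), CDKN2AIP (0.0892), ABHD17B (0.106), RIN2 (0.111) and ETS2 (0.122). TBPL1, which encodes a relative of the TATA-binding protein, averaged 18.4 scaled cRPKM in UVC+photolyase, 5.66 in UVC and 16.95 in control. The 6 libraries are 3 groups of 2, so such a likeness amounts to the same pattern over 3 groups.

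The scaling of libraries bears on the smaller changes. The main factors take the bulk of transcripts as unchanged, and with library totals instead the median of all tested genes moved to 0.42 for UVC against control and -0.34 for UVC+photolyase against UVC. A change of scaling shifts all genes alike, so each member's change relative to that median is the same by construction, for example -1.49 for SLBP and -2.02 for LSM11 after UVC. On the library-total scale itself SLBP (-1.07), LSM11 (-1.60), CASP8AP2 (-0.59) and NPAT (-0.37) were still called lower after UVC and LSM10 (1.37) and SYMPK (0.78) higher. ERI1 (0.48), CSTF2 (0.49) and CPSF3 (0.28) were then called higher too, so that 5 of 9 were higher and 4 lower. None of these scalings measures total RNA per cell.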

How the data were processed

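RNA-seq libraries were prepared with TruSeq reagents, per the labels' protocols. Reads were aligned with Bowtie to hg19, per the submitters' processing notes; how reads were counted, on which strand and over which annotation is not given in the sources used here. The authors deposited whole read counts and corrected RPKM (cRPKM) for 19847 genes, units read here from the values since the files have no header; 354 genes had no values. Count over cRPKM gave each gene's effective length, with a spread across libraries of up to 0.183% in 6669 genes checked.

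The test on deposited counts used edgeR 4.0.16 (R 4.3.3) with 3 group means over 6 libraries (TMM factors 0.8845 to 1.18, 3 residual and 10.03 prior degrees of freedom, common biological coefficient of variation 4.62%), two-sided. Genes needed 1 cRPKM in 2 libraries (11926). Scaled cRPKM is the deposited RPKM divided by the factor. The test was also run on simulated counts in which few genes changed, unlike in these data, so that run does not check the scaling. Alternatives were library totals, DESeq2 1.42.0, limma 3.58.1 on log2(cRPKM + 0.1, 1 or 2), no filter or 5 cRPKM, only the 2 groups compared, a replicate block, and each library left out. Counts of replicate libraries differed beyond counting error (chi-square per degree of freedom 15.0 in UVC+photolyase, 5.59 in UVC and 24.2 in control). From related lists of over 2 genes, up to 2 genes called in each direction with the smallest p are named; 1 such gene is not reported here. Members and lists were chosen with earlier results of these data known. Sequences came from RefSeq (GRCh38.p14) and GENCODE 29 (GRCh38), a build other than that of the files, and were used with no coordinate of the files.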

Additional observations from a re-analysis of the deposited data

How the results depend on the processing

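In every alternative that tested them, SLBP, LSM10, LSM11, NPAT, CASP8AP2 and SYMPK kept the direction and call given for UVC against control and for UVC+photolyase against UVC. Limma used the deposited cRPKM, so that the scaling and the pseudocount changed together: LSM11 after UVC was at -1.60 with library totals and, in limma, at -1.5, -0.96 and -0.69 with pseudocounts of 0.1, 1 and 2. The number of members called in UVC+photolyase against UVC was 5 of 5 tested with the 5 cRPKM filter, which removes 4 members, 9 with library totals or limma, 7 with DESeq2, 6 with no filter, and 7 to 8 with a library left out. For UVC+photolyase against control, 4 members were called; the number was 2 with library totals, 1 with limma at each of the 3 pseudocounts, 2 with the 5 cRPKM filter, 5 with no filter, and 1 to 4 with a library left out. For UVC against control it was 6, and 9 with library totals or limma, 7 with no filter, 4 of 5 tested with the 5 cRPKM filter, and 6 to 7 with a library left out.

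After UVC, CPSF3 turned to 0.28 with library totals and to 0.26, 0.27 and 0.24 with limma at pseudocounts of 1, 0.1 and 2, each called; it was called lower in UVC+photolyase against UVC with library totals (-0.39). In the same 4 settings ITGB1BP1 was at 0.26, 0.25, 0.26 and 0.24, MCM4 at 0.0059, 0.0057, 0.0059 and 0.0055, and H4C8 at 0.18, 0.17, 0.18 and 0.17. These settings share the use of library totals. CPSF3 was called lower with no filter (adjusted p = 0.00665), without control replicate 2 (0.0211) and without UVC replicate 2 (0.0434). All genes called after UVC were 5074 higher and 5140 lower, and 7091 and 3546 with library totals. For UVC+photolyase against UVC they were 4676 and 4755, and 3324 and 6939, and against control 3933 and 3919, and 5228 and 2848.

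Deviations of libraries with the same replicate number correlated at -0.02 to 0.18 between groups. Each group gives a single such difference, so whether the numbers pair the libraries cannot be decided from these values. Blocking on replicate number gave, as members called, 6, 8 and 4 in the 3 comparisons, and all genes called were 10238, 9480 and 7937. The lowest count of LSM10 was 274, in a control library, and that of LSM11 307, in a UVC library.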
